A study of Mus musculus with 6 samples.

Results

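The genes described here encode the machinery that copies DNA and the enzymes that supply its nucleotides. They were chosen by name, from a list of 53 genes matched to the symbols of the array's annotation, and where a gene had several probe sets the brightest on average stands for it. Of the 53, 52 were named on the array and Chaf1a was not analysed here, so 52 of 18193 named genes are described. RNA came from pancreatic islets, the clusters of endocrine cells in the pancreas, of mice at 12.5 days post coitum (dpc) of pregnancy (3 arrays) and of non-pregnant mice (0 dpc, 3 arrays). The study asked which factors make islets proliferate in pregnancy. The islets were freed with collagenase and hybridised to Affymetrix arrays, and the labels give no strain, age, genotype or number of animals. They do not tell whether replicate arrays hold RNA of different mice, so p-values reflect only the variation among these samples, possibly technical. Median signals were 89.6, 86.1 and 92.9 on pregnant and 89.9, 100.3 and 95.4 on non-pregnant arrays. The 3'/5' signal ratio of the actin control, a sign of RNA quality, was 1.63 to 1.66 on pregnant and 1.56 to 1.63 on non-pregnant arrays, narrowly without overlap, while that of Gapdh overlapped at 0.687 to 0.725 on pregnant and 0.669 to 0.711 on non-pregnant arrays. Their part in the results was not tested.

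DNA replication starts at origins that are marked in G1 phase by the origin recognition complex, which with Cdc6 and Cdt1 loads the ring-shaped MCM helicase. At the start of S phase the helicase is switched on by the kinase Cdc7 with Dbf4 and by the binding of Cdc45 and the GINS complex, after which DNA polymerases copy the strands with the sliding clamp PCNA. Ribonucleotide reductase and the thymidylate enzymes provide the nucleotides, and adult islet cells are known to divide rarely outside conditions such as pregnancy.

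A large part of the replication genes was higher in pregnant islets, among them 5 of the 6 MCM helicase subunits, the clamp Pcna and both subunits of ribonucleotide reductase. Of 52 genes on the array, 49 were bright enough to be tested, 20 were higher in pregnant than in non-pregnant islets and 0 were lower at an adjusted p under 0.05 (limma, Benjamini-Hochberg over 27022 probe sets). Among all 12914 genes tested, 6.1% were higher and 5.79% lower. Lower calls numbered 0 in every setting tried, and no probe set of any of these genes was called lower. The median log2 difference, pregnant minus non-pregnant on the log2(signal + 16) scale, was 0.46 over the 49 genes, against -0.04 over all genes tested. Of the 20, 6 reached 2-fold on this scale (Uhrf1, Cdc6, Gins2, Mcm5, Rrm2 and Mcm2), which 0.898% of genes tested did. The sizes for Uhrf1 and Cdc6, whose non-pregnant means lay under the mean signal of 50.5 above which probe sets were tested (the filter signal), depended on the pseudocount, and with a pseudocount of 64 Gins2 had 1.31, Uhrf1 1.14, Cdc6 1.10 and Mcm5 0.997. Without the filter on dim probe sets, 17 of 52 were higher and 0 lower, against 3.45% and 2.87% of all genes. The 3 pregnant arrays lay above the 3 non-pregnant arrays without overlap for 34 of the 52 genes and below them for 0, against 11.2% and 14.5% of all named genes. The summed signal of the 52 probe sets was 39961, 40895 and 40508 on the pregnant arrays, against 31977, 31521 and 32705 on the non-pregnant arrays. In whole islets, more dividing cells and more RNA per cell cannot be told apart.

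**Figure D1:**
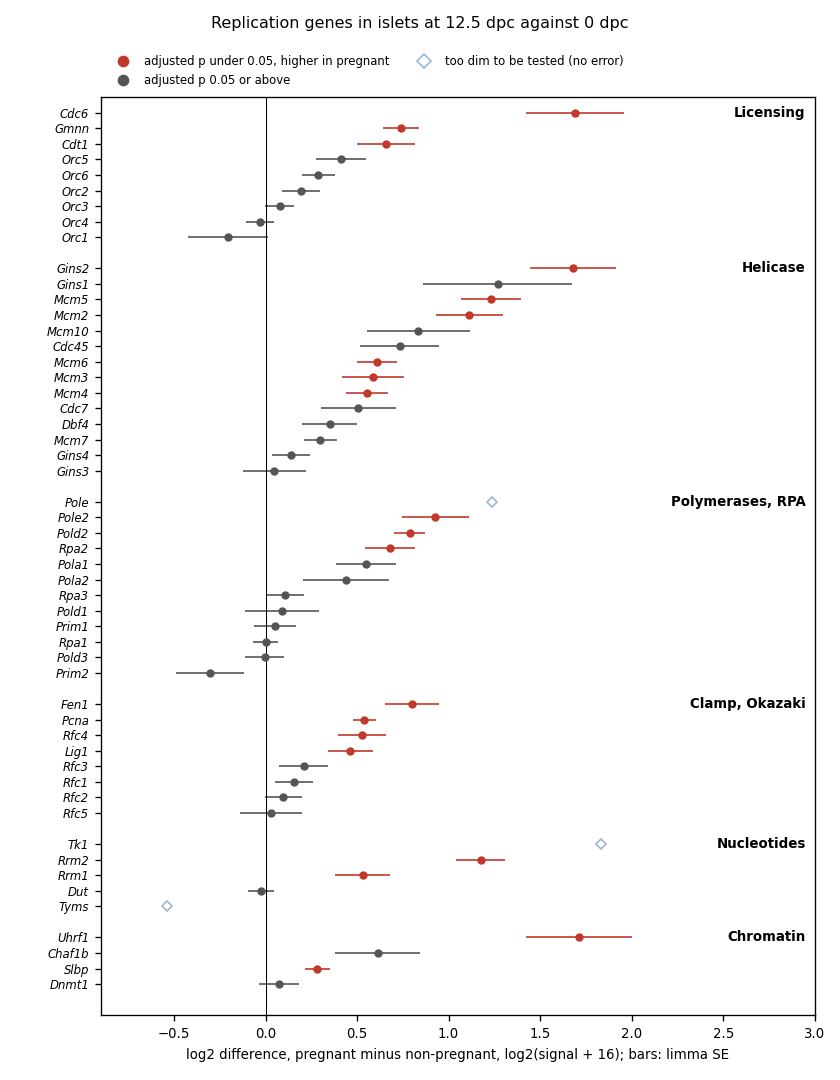
Log2 difference of each of the 52 genes, pregnant minus non-pregnant, on the log2(signal + 16) scale, with limma standard errors (n = 3 arrays each), grouped by role and ordered by size within a role. The 20 filled red points are the genes past an adjusted p of 0.05, grey points are the 29 others tested, and open diamonds are the 3 genes too dim to be tested.

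The calls held to different degrees. Of the 20 genes, 14 stayed past the threshold with any 1 of the 6 arrays left out (Cdc6, Gmnn, Mcm2, Mcm4, Mcm5, Mcm6, Gins2, Pold2, Pole2, Rpa2, Pcna, Fen1, Rrm2 and Uhrf1). Mcm3 and Lig1 lost the call without any 1 array, at adjusted p-values of 0.0801 to 0.149 and 0.0585 to 0.128. Rrm1 and Slbp passed only without non-pregnant replicate 2 (adjusted p = 0.0314 and 0.0464), and otherwise had up to 0.167 and 0.113. Rfc4 kept the call only without pregnant replicate 3 or non-pregnant replicate 1 (otherwise 0.0634 to 0.105). Cdt1 lost it without pregnant replicate 1, pregnant replicate 3 or non-pregnant replicate 1 (0.0503 to 0.0767). Without a variance trend 11 of the 20 passed.

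Acinar cells secrete digestive enzymes and lie next to islets, and their markers moved the other way. Of 14 acinar markers tested, 12 were lower and 0 higher, and the summed signal of the 15 on the array was 98727 to 159290 on pregnant and 168290 to 316740 on non-pregnant arrays, none of them being at 0. With the acinar markers' median on an array added to the fit, 6 of the 20 genes passed (Mcm4, Mcm5, Gins2, Pold2, Pcna and Rrm2), and the median difference of the 49 was 0.44. Cdt1 had 0.27, Mcm2 0.56 and Rrm1 0.19 with it, against 0.66, 1.11 and 0.53 without it, while Gins2 had 2.29 and Pcna 0.64. The acinar median itself separated the groups, with -0.90, -0.55 and -0.20 on pregnant and 0.93, -0.11 and 0.94 on non-pregnant arrays. With 6 arrays the fit could not cleanly separate it from pregnancy, and why calls were lost was not tested. Endocrine markers were bright on all arrays, 1 of 10 being called higher and 1 lower. Their summed signals were 323670 to 339460 in pregnant and 311080 to 332760 in non-pregnant islets. These sums were carried by probe sets at the top of the signal range, Iapp or Ppy being the brightest on each pregnant array. They therefore cannot show whether endocrine content differed. Other cell types that could hold dividing cells gave 0 higher and 1 lower of 9 endothelial markers, 0 and 3 of 10 stellate and fibroblast markers, 2 and 1 of 6 duct markers, 1 and 0 of 9 macrophage markers and 0 and 0 of 2 lymphocyte markers tested. Of the duct markers Krt18 (0.33) and Epcam (0.39) were called higher and Krt7 (-0.27) lower. Krt19, Krt8 and Sox9 were not called, and Muc1 and Cftr were too dim to be tested. Summed signals were 4819 to 6543.6 in pregnant and 8582.5 to 8873.7 in non-pregnant islets for the stellate and fibroblast markers. The macrophage markers summed to 9865.2 to 10828 in pregnant and 6569.6 to 7240.3 in non-pregnant islets, a gap carried by C1qa, the 1 marker called (7451.1, 7822.6 and 6624.8 in pregnant and 3810.4, 3120.3 and 3583.9 in non-pregnant islets), while the median centred log2 level of the list overlapped between groups (-0.11 to 0.12 in pregnant and 0.03 to 0.11 in non-pregnant islets). All 3 erythroid markers on the array were too dim to be tested. Which cells carried the replication transcripts was not tested.

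**Figure D2:**
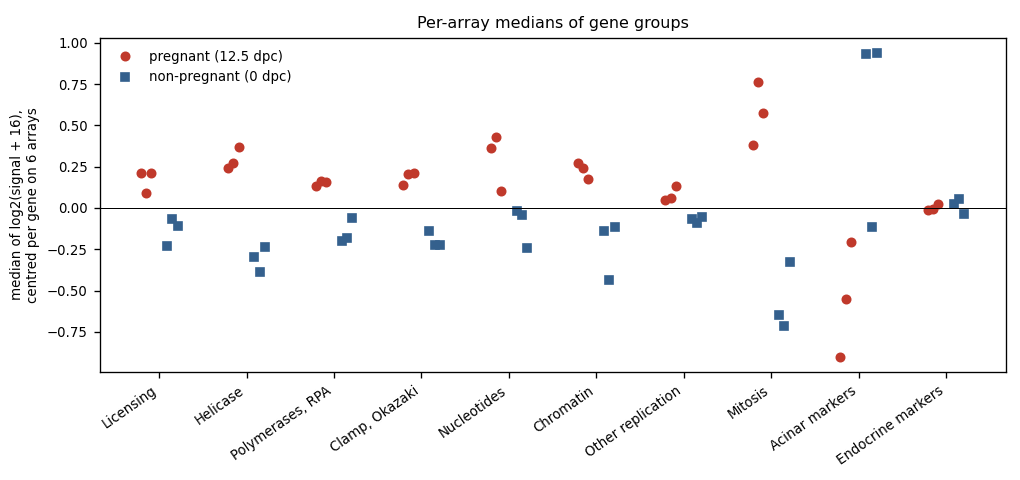
Median of log2(signal + 16), centred per gene on its mean over the 6 arrays, for each role of the replication genes, the other replication genes, mitosis genes, acinar markers and endocrine markers; each point is 1 array, with pregnant arrays as circles left of non-pregnant arrays as squares. All 6 roles separate the groups, the helicase genes lying between 0.24 and 0.37 on pregnant and between -0.39 and -0.23 on non-pregnant arrays, and the acinar markers lie the other way.

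The promoters of the 6 genes with the smallest p that had a sequence are shown because these genes moved together. Promoter sequences came from RefSeq (GRCm38.p6), where 45 of the 53 genes had one, each window running from 250 bases before to 50 after an annotated start. The stretches printed are the 160 bases before the start, 5' to 3' on the gene's strand, with E2F-type words and CCAAT boxes in capitals. For genes with several starts the first in the table is shown.
Pold2: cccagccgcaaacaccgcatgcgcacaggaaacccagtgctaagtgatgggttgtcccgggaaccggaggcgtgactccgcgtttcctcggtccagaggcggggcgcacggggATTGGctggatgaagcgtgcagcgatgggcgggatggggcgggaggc
Rrm2: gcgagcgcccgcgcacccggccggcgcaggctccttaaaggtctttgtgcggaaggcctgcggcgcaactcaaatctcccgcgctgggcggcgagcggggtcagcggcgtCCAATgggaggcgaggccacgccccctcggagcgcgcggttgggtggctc
Pcna: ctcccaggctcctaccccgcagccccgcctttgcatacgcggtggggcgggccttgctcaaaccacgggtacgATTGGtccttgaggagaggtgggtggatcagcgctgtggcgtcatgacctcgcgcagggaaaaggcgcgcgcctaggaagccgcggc
Mcm5: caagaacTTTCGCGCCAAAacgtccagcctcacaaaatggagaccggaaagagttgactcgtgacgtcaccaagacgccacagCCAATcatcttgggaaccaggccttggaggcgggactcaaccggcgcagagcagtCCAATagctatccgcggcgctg
Cdc6: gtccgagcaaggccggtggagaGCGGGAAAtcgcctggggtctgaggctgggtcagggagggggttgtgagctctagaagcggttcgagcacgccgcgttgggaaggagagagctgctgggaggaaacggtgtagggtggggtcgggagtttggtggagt
Mcm2: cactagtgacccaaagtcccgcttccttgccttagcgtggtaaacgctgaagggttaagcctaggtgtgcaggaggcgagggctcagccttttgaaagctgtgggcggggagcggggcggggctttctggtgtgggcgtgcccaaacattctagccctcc
Their positions are Pold2 chr11:5878257-5878416 (minus strand), Rrm2 chr12:24708094-24708253 (plus strand), Pcna chr2:132253181-132253340 (minus strand), Mcm5 chr8:75109349-75109508 (plus strand), Cdc6 chr11:98907991-98908150 (plus strand), Mcm2 chr6:88898781-88898940 (minus strand).

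E2F factors are the transcription factors known for switching on replication genes at the entry to S phase, and NF-Y is known to bind CCAAT boxes. The words searched, on both strands and counted once per gene, were TTTCCCGC, TTTCGCGC, TTTGCCGC and TTTGGCGC, chosen with the expression values known. At least 1 stood in a promoter window of 17 of 45 replication genes (37.8%), of 704 of 27025 genes in the table (2.6%) and of 476 of 10434 tested genes in the table (4.56%). Matches were found in 8 of 17 genes that were higher in pregnancy (47.1%) and in 9 of 25 that were tested but not called (36.0%). By role they stood in 4 of 8 licensing, 5 of 10 helicase, 4 of 10 polymerase, 2 of 7 clamp, 2 of 5 chromatin and 0 of 5 nucleotide genes. CCAAT stood in 27 of the 45 genes and in 4435 of the 10434 tested genes (42.5%). The GC box GGGCGG stood in 36 of the 45 and in 67.5% of tested genes, and the cell cycle homology words TTTGAA or TTCGAA in 10 of the 45 and 1670 of the 10434. A match is a run of letters and was not tested as a binding site. Mcm5, where matches on both strands overlap, and Cdc6 are shown above. Mcm3 had a match at 20 and another at 39 bases from the start. Mcm6 had one at -47 and others at -110 and -106, which overlap on opposite strands. The matches of Lig1 and Uhrf1 lie at start 2 of these genes in the promoter table. For the other called genes with a match, 1 match each is printed, with the E2F-type word in capitals and 8 bases on each side.
Mcm3: cttccgtgGCGGGAAAacttggga
Mcm6: tggacgggTTTGGCGCgaagtagc
Lig1: caaagtgcGCGCGAAAtctgtgtg
Cdt1: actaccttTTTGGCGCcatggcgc
Pole2: cggcggtgGCGCCAAAtcgcgaac
Uhrf1: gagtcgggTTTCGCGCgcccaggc
Their positions are Mcm3 chr1:20820278-20820301 (minus strand), Mcm6 chr1:128359737-128359760 (minus strand), Lig1 chr7:13278844-13278867 (plus strand), Cdt1 chr8:122568039-122568062 (plus strand), Pole2 chr12:69228165-69228188 (minus strand), Uhrf1 chr17:56304120-56304143 (plus strand).

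**Figure D3:**
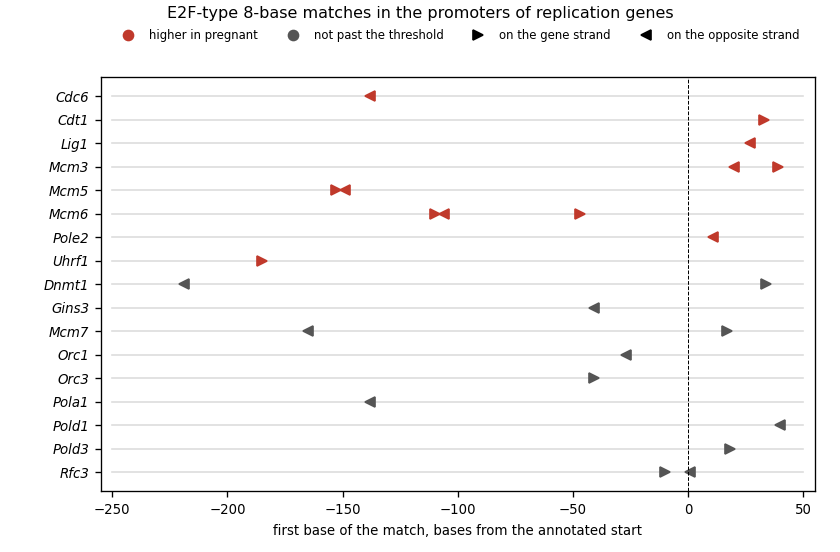
Position of each E2F-type 8-base match in the promoter windows of the 17 replication genes that hold one, in bases from the annotated start (dashed line), with the strand of the match as the direction of the marker. The 8 genes higher in pregnant islets (red) stand above the 9 that did not pass the threshold (grey), and in 13 of the 17 a match lies within 100 bases of the start.

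Licensing divided into a part that passed the threshold and a part that did not. All 3 genes outside the origin recognition complex were higher in pregnant islets. Cdc6, the loader that joins the origin complex to the helicase, had signals of 154.1, 133.3 and 161.5 on pregnant arrays, against 34.1, 28.1 and 44.7 on non-pregnant arrays. The lowest pregnant value was well above the highest non-pregnant one (log2 difference 1.69, SE 0.27, limma adjusted p = 0.00189). The non-pregnant signals were near the 1.1 to 32.3 of control probe sets for a bacterial transcript, and their mean of 35.6 lay under the filter signal, so Cdc6 passed the filter through its pregnant arrays and the size of its difference is set by the pseudocount (1.10 with 64 and 2.06 with 1). Without the filter its adjusted p was 0.00941. Gmnn, geminin, which binds Cdt1 and blocks a new round of licensing, had 750.2, 805.3 and 765.7 in pregnant and 457.2, 466.4 and 444.9 in non-pregnant islets. The replicates were tight, and the difference was 0.74 ± 0.10 (limma adjusted p = 0.000535). Cdt1, the other helicase loader, had 628.7, 584.1 and 658.4 in pregnant and 299.9, 495.6 and 393.7 in non-pregnant islets (0.66 ± 0.16, limma adjusted p = 0.0211). Its non-pregnant values were spread, the highest of them lying below all pregnant values, and a second tested probe set was also higher (0.82, adjusted p = 0.0276).

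None of the 6 subunits of the origin recognition complex passed the threshold. In 3 of them (Orc2, Orc5 and Orc6) the pregnant arrays lay above the non-pregnant ones without overlap, as in 13.9% of all tested genes. Orc6 had 1049.4, 958.3 and 1002.8 in pregnant and 768.9, 811.8 and 877.5 in non-pregnant islets, without overlap (0.29 ± 0.09, limma adjusted p = 0.0698). It passed with quantile normalization, median centring or averaged probe sets. Orc5 had 0.41 ± 0.14 (adjusted p = 0.0862). Without non-pregnant replicate 3 it had 0.59 and passed (adjusted p = 0.00795), and without non-pregnant replicate 2 it had 0.27 (adjusted p = 0.255). The differences of the remaining 4 ran from -0.21 for Orc1 to 0.19 for Orc2, with adjusted p-values of 0.304 to 0.869. Orc1, the subunit whose ATPase activity is needed for helicase loading, had 130.7, 136.3 and 108.5 in pregnant and 117.0, 185.9 and 143.1 in non-pregnant islets, with overlap. Its second probe set, too dim to be tested, had 42.5, 17.8 and 31.9 in pregnant and 52.6, 65.8 and 65.1 in non-pregnant islets. There the pregnant arrays lay below without overlap (-0.75). With averaged probe sets Orc1 had -0.48 and did not pass. The contrast between Cdc6, Cdt1 and Gmnn and the origin complex was not tested.

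The MCM2-7 helicase, the ring that unwinds DNA at the fork, was higher in 5 of its 6 subunits. All 6 had pregnant arrays above all non-pregnant arrays, as did 13.9% of all tested genes. The differences of the 6 subunits lay between 0.30 and 1.23. Mcm5 had 292.9, 319.4 and 305.4 in pregnant and 116.6, 111.4 and 136.8 in non-pregnant islets, a ratio of means of 2.52 (1.23 ± 0.16, limma adjusted p = 0.000575). It was past the threshold in every alternative tried, and a second probe set had 1.14 (adjusted p = 0.0155). Mcm2 had 1729.5, 1741.0 and 1674.6 in pregnant and 848.8, 1066.5 and 530.5 in non-pregnant islets (1.11 ± 0.18, adjusted p = 0.00258). The pregnant values were close together and the non-pregnant values were spread, and its second probe set was higher too (0.70, adjusted p = 0.00856).

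For Mcm6 the signals were 839.1, 731.7 and 736.8 in pregnant and 522.5, 444.5 and 530.7 in non-pregnant islets (0.61 ± 0.11, limma adjusted p = 0.00457). Mcm4 had 787.2, 801.5 and 839.3 in pregnant and 529.2, 484.5 and 634.9 in non-pregnant islets (0.55 ± 0.11, adjusted p = 0.009). A second Mcm4 probe set did not pass (0.21, adjusted p = 0.366). Mcm3 had 206.1, 219.1 and 242.7 in pregnant and 145.1, 138.0 and 144.7 in non-pregnant islets (0.59 ± 0.17, adjusted p = 0.0466). Of its 5 probe sets 4 were tested and 3 were higher, the other called ones with 1.02 and 1.34. The one with 1.34 had 19, 37.4 and 51.7 in non-pregnant islets, a mean of 36.0 under the filter signal. It passed the filter through its pregnant arrays, and without the filter its limma adjusted p was 0.0653. Mcm7 was the subunit not called, with 1578.1, 1629.0 and 1638.8 in pregnant and 1476.3, 1299.6 and 1171.2 in non-pregnant islets (0.30 ± 0.09, adjusted p = 0.0608). Its other 3 probe sets had 0.11, 0.03 and 0.22, and their average with the brightest had 0.17 (adjusted p = 0.331). The brightest passed with array weights, with a top 40% filter and without non-pregnant replicate 1.

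**Figure D4:**
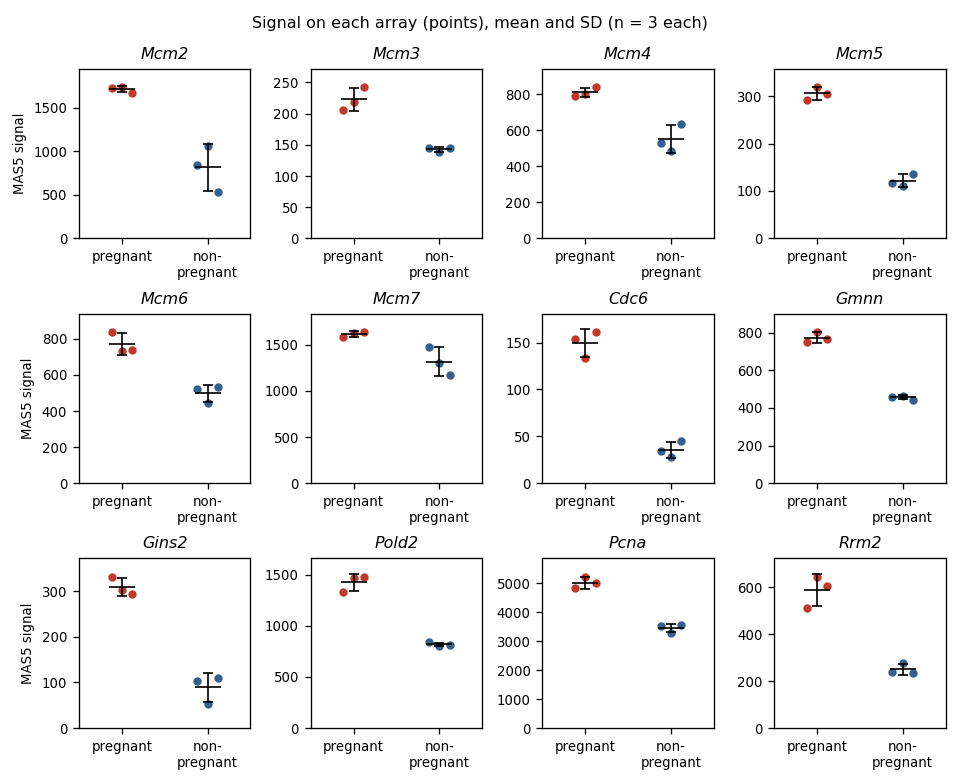
MAS5 signal on each array (points), with the mean and SD of the 3 arrays of a group (bar and whiskers), pregnant left and non-pregnant right, for the 6 MCM subunits and 6 genes of other roles; every vertical axis starts at 0. In all 12 panels the 3 pregnant arrays lie above the 3 non-pregnant arrays, most closely for Mcm7, which did not pass the threshold.

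Among the factors that activate the helicase, 1 passed. Gins2, a subunit of the 4-part GINS complex that joins the helicase to the replication fork, had 331.7, 301.9 and 292.6 in pregnant and 103.2, 52.9 and 110.4 in non-pregnant islets. The ratio of means was 3.48 (1.68 ± 0.23, limma adjusted p = 0.000827), and its second probe set was also higher (1.74, adjusted p = 0.0102). That second probe set had 13.8, 43.2 and 12.6 in non-pregnant islets, a mean of 23.2 under the filter signal. It passed the filter through its pregnant arrays, and without the filter its limma adjusted p was 0.0287. The other GINS subunits differed among themselves, Gins1 having 1.27 ± 0.41 (adjusted p = 0.0756), Gins4 0.14 ± 0.10 and Gins3 0.05 ± 0.17. Gins1 had 107.4, 133.4 and 94.4 in pregnant and 65.1, 10.1 and 53 in non-pregnant islets, without overlap but with 1 very low value, and without that array, non-pregnant replicate 2, it had 0.76. Its non-pregnant mean of 42.7 lay under the filter signal. Without non-pregnant replicate 1 it passed (1.58, adjusted p = 0.045). Cdc45, which completes the active helicase, had 151.5, 226.4 and 257.8 in pregnant and 115.4, 110.5 and 130.0 in non-pregnant islets (0.73 ± 0.22, adjusted p = 0.0535), and passed with quantile normalization, median centring or robust eBayes and without pregnant replicate 1. Mcm10, a factor of helicase start-up, had 0.83 ± 0.28 (adjusted p = 0.0884). The activating kinase Cdc7 and its partner Dbf4 had 0.51 ± 0.20 and 0.35 ± 0.15 (adjusted p = 0.159 and 0.185). A second tested Cdc7 probe set had -0.21 with overlapping groups, and the average of the probe sets had 0.15. In the probe sets used here the pregnant arrays of these 4 genes lay above the non-pregnant ones without overlap, as in 13.9% of all tested genes. None of the 4 passed.

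Of 11 polymerase and RPA genes tested, 3 were higher. Pold2, an accessory subunit of the lagging strand polymerase delta, had 1329.8, 1467.4 and 1483.5 in pregnant and 839.6, 808.1 and 811.7 in non-pregnant islets. It had the smallest p of all 49 genes (0.79 ± 0.08, limma adjusted p = 0.000114). Pold1, the catalytic subunit, and Pold3, another accessory subunit, had 0.09 ± 0.20 and -0.005 ± 0.11 (adjusted p = 0.849 and 0.987). Pole2, the second subunit of the leading strand polymerase epsilon, had 196.4, 228.8 and 229.3 in pregnant and 100.0, 102.0 and 119.7 in non-pregnant islets (0.93 ± 0.18, adjusted p = 0.00765). Pole, its catalytic subunit, was too dim to be tested, with 24.8, 54.3 and 63.6 in pregnant and 3.2, 6.4 and 24.7 in non-pregnant islets. Without the filter its adjusted p was 0.15.

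Polymerase alpha with primase, which lays down the primers, had 0 of 4 subunits past the threshold. Its catalytic subunit Pola1 had 301.9, 264.7 and 250.4 in pregnant and 163.0, 172.0 and 209.8 in non-pregnant islets (0.55 ± 0.16, limma adjusted p = 0.0563), and it passed with quantile normalization, median centring or a top 40% filter. Pola2 had 0.44 ± 0.24, the primase subunit Prim1 0.05 ± 0.11 and Prim2 -0.30 ± 0.18 (adjusted p = 0.304, 0.842 and 0.373). Without non-pregnant replicate 3 Pola2 had 0.20 and Prim2 -0.14, and without non-pregnant replicate 1 Pola2 had 0.68, none of which passed. With averaged probe sets Prim2 had -0.073. The RPA trimer coats single-stranded DNA, and its middle subunit Rpa2 had 408.8, 393.9 and 423.6 in pregnant and 243.3, 224.3 and 283.2 in non-pregnant islets (0.68 ± 0.14, adjusted p = 0.00779). A second Rpa2 probe set had 0.37 and did not pass (adjusted p = 0.25). Rpa1, the large subunit, overlapped fully, with 5954.8, 6200.6 and 5679.8 in pregnant and 5793.6, 5614.4 and 6446.0 in non-pregnant islets, and Rpa3 had 0.11 ± 0.10 (adjusted p = 0.578).

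Among clamp and lagging strand genes 4 of 8 were higher. Pcna, the sliding clamp that tethers polymerases to DNA, had 4821.4, 5226.9 and 4990.9 in pregnant and 3505.3, 3292.2 and 3542.6 in non-pregnant islets. Its ratio of means, 1.45, was modest, and its replicates were tight (0.54 ± 0.06, limma adjusted p = 0.000216). Fen1, the nuclease that trims Okazaki fragments, had 883.2, 876.2 and 676.1 in pregnant and 517.0, 367.3 and 500.5 in non-pregnant islets (0.80 ± 0.15, adjusted p = 0.00504), and its second probe set had 1.13 (adjusted p = 0.00273). Lig1, the ligase that seals them, had 392.5, 455.7 and 439.5 in pregnant and 301.2, 322.7 and 296.0 in non-pregnant islets (0.46 ± 0.12, adjusted p = 0.0357). In the clamp loader RFC, Rfc4 was the 1 of 5 subunits past the threshold, with 374.4, 420.1 and 362.3 in pregnant and 276.4, 258.0 and 252.2 in non-pregnant islets (0.53 ± 0.13, adjusted p = 0.0246). Its second probe set did not pass (0.39, adjusted p = 0.237). The remaining RFC subunits had 0.03 for Rfc5 to 0.21 for Rfc3, at adjusted p-values of 0.398 to 0.946.

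Both subunits of ribonucleotide reductase, which makes deoxynucleotides, were higher. Rrm2, the small subunit whose level is known to rise in S phase, had 510.6, 645.5 and 606.3 in pregnant and 238.6, 277.4 and 235.5 in non-pregnant islets, a ratio of means of 2.35 (1.18 ± 0.13, limma adjusted p = 0.000191). A second of its 3 probe sets was higher (0.95, adjusted p = 0.00392) and the dimmest had 0.35 (adjusted p = 0.529). Rrm1, the large subunit, had 495.1, 557.7 and 441.3 in pregnant and 275.1, 398.3 and 352.5 in non-pregnant islets (0.53 ± 0.15, adjusted p = 0.0462), and its second tested probe set did not pass (0.37, adjusted p = 0.164). Dut, which removes dUTP, had -0.03 ± 0.07 (adjusted p = 0.881). The thymidylate enzymes were too dim to be tested. Tk1, the cytosolic thymidine kinase, had 83.6, 103.6 and 120.9 in pregnant and 59.6, 3.7 and 8.2 in non-pregnant islets, without overlap (no filter, adjusted p = 0.0739). Tyms, thymidylate synthase, had 58.5, 12.6 and 35.8 in pregnant and 63.2, 71.6 and 32.8 in non-pregnant islets in its representative probe set. All 4 of its probe sets were too dim to be tested, and no direction is given for it.

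In the chromatin group, Uhrf1, which guides the maintenance methylase to newly copied DNA, had 124.9, 171.9 and 195.3 in pregnant and 24.8, 41.8 and 51.4 in non-pregnant islets (1.71 ± 0.29, limma adjusted p = 0.00291). Its non-pregnant mean of 39.3 also lay under the filter signal, with values reaching into the range of the bacterial controls, and the difference was 1.14 with a pseudocount of 64 and 2.07 with 1. Without the filter its adjusted p was 0.0134. A second Uhrf1 probe set had 0.41 and did not pass (adjusted p = 0.551). Its non-pregnant mean of 46.6 lay under the filter signal too, so it was tested through its pregnant arrays. Dnmt1, the methylase itself, had 0.07 ± 0.11 (adjusted p = 0.75), and none of its 3 probe sets passed. Slbp, which binds the stem-loop of histone mRNAs, had 2156.4, 1994.7 and 2075.5 in pregnant and 1646.5, 1743.2 and 1716.0 in non-pregnant islets (0.28 ± 0.07, adjusted p = 0.0257), and with its 3 probe sets averaged it had -0.03. Chaf1b, a subunit of the histone chaperone CAF-1, had 0.61 ± 0.23 (adjusted p = 0.131), with 174.5, 177.1 and 156.4 in pregnant and 128.4, 72.2 and 123.3 in non-pregnant islets. Its second tested probe set had 0.044, the average of the probe sets 0.33, and the brighter one 0.38 without non-pregnant replicate 2.

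The 52 genes had 116 probe sets, of which 93 were tested, 29 were higher and 0 lower, against 4.79% and 4.78% of all probe sets tested. Over all probe sets these were 1294 higher and 1293 lower, a split that median centring moved to 1430 and 583. Of the 20 called genes 14 had another tested probe set, and in 8 of these another one was called higher too. Together these 14 genes had 17 further tested probe sets, 16 with a positive difference, the exception being one of Slbp. The further probe set of Gins2 and the dimmest called one of Mcm3 passed the filter through their pregnant arrays. So did the further probe set of Uhrf1, which was not called. No further probe set of a gene that was not called passed the threshold. Of the 29 genes not called, 24 had a positive difference and 7 had an adjusted p under 0.1. In 12 of them the pregnant arrays lay above the non-pregnant ones without overlap, which 13.9% of all tested genes did.

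Of other genes of replication and nucleotide synthesis, 43 of 49 listed were tested. Of the 43, 7 were higher and 0 lower, against 6.1% and 5.79% of all genes tested. Without the filter 4 of the 46 on the array were higher and 0 lower, against 3.45% and 2.87% of all genes. The median difference of the 43 was 0.19. The 5 with the smallest p were Dck, the deoxycytidine salvage kinase (0.62 ± 0.10, limma adjusted p = 0.00162), the topoisomerase Top2a (1.66 ± 0.26, adjusted p = 0.0018), Cad, which starts pyrimidine synthesis (0.81 ± 0.13, adjusted p = 0.00184), the nucleoside diphosphate kinase Nme1 (0.25 ± 0.06, adjusted p = 0.0143) and the fork checkpoint mediator Clspn (1.03 ± 0.25, adjusted p = 0.0225). Cad had 848.9, 663.8 and 781.6 in pregnant and 374.3, 438.3 and 476.7 in non-pregnant islets, and Dck 968.9, 1088.0 and 976.1 in pregnant and 679.9, 609.0 and 672.0 in non-pregnant islets. Neither gene's groups overlapped. Clspn did not pass without the filter (limma adjusted p = 0.0704). A called gene of this list not named here had a non-pregnant mean of 44.7, under the filter signal. It passed the filter through its pregnant arrays. In a list of mitosis genes, which also holds Top2a, 15 of 24 tested were higher and 0 lower, with a median of 1.13. Among all genes tested 6.1% were higher and 5.79% lower. Some of these mitosis genes, called ones among them, had non-pregnant means under the filter signal of 50.5. They passed the filter through their pregnant arrays. Without the filter 13 of the 25 on the array were higher and 0 lower, against 3.45% and 2.87% of all genes. The proliferation marker Mki67 had 557.8, 691.7 and 776.8 in pregnant and 186.6, 235.6 and 191.0 in non-pregnant islets (1.64 ± 0.15, limma adjusted p = 3.72e-05). The difference between the replication and mitosis lists was not tested.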

How the data were processed

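Islet RNA (100 ng, per the labels' protocols) was hybridised to 6 arrays, 3 pregnant and 3 non-pregnant. Each array's deposited table holds linear intensities, which the submitters' processing notes name as MAS5 output. Its version and parameters were not given in those notes, and presence calls played no role. Of 45101 probe sets 64 controls were left out. With the lowest and highest 2% of signals left out, the mean signal was 500 on every array, a common level already present in the deposited values. Signals were taken as log2(signal + 16) without further normalization, and the top 60% by mean (27022) were tested. Genes were named from the platform annotation, which gave 34958 probe sets 1 symbol, 932 several and 9211 none, and checked against RefSeq identifiers, where 0 symbols changed.

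The comparison used lmFit and eBayes with a variance trend (limma 3.58.1, R 4.3.3; 2-sided, 4 residual degrees of freedom). Errors of differences are limma standard errors. The fit was tested on simulated data. Alternatives were pseudocounts of 1 and 64, quantile normalization, median centring, no filter and a top 40% filter, no trend, robust eBayes, array weights, a block for replicate number, averaged probe sets, an acinar covariate and each array left out. The number of arrays limits precision. Members, roles, lists and alternatives were chosen with earlier results of these data known. All 53 members may be named, and values per array are given for the MCM subunits, Pcna, the 3 called genes with the smallest p in each role and Mki67. Further genes were given values per array after their values were seen. They are genes near the threshold or too dim, other members such as Orc1, Rpa1, Lig1 and Chaf1b, the other replication genes Cad and Dck, and the marker C1qa. Of other replication genes the 5 with the smallest p are named. Promoter windows were searched in Python 3.11.15, and figures were drawn with matplotlib 3.10.9.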

Additional observations from a re-analysis of the deposited data

How the results depend on the processing

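The count of 20 higher genes was 11 without a variance trend, 13 with each gene's probe sets averaged and 6 with the acinar covariate. It was 17 to 23 in the other settings that kept all arrays and 15 to 17 with any 1 array left out, and 0 genes were lower in every setting. Averaging left 40 of the 52 genes bright enough to be tested. The median difference of 0.46 was 0.40 with a pseudocount of 64, 0.51 with quantile normalization, 0.54 with median centring, 0.29 with a top 40% filter (38 genes tested) and 0.16 with averaged probe sets. It was 0.45 to 0.51 with any 1 array left out. Centring moved the median of all tested probe sets from -0.045 to 0.0305. Over all probe sets, 1294 were higher and 1293 lower, against 1430 and 583 with median centring, 393 and 210 without the trend and 364 and 186 with the acinar covariate. Mcm5, Gins2, Pold2, Pcna and Rrm2 passed in every setting that gave a value. The cause of the other lost calls was not tested.

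With the replicate number as a block (replicate block) 18 genes were higher and 0 lower, Mcm3 and Lig1 losing the call. Deviations of same-numbered arrays correlated at -0.0275, -0.0659 and 0.0283, and pregnant replicate 1 correlated best with non-pregnant replicate 2 (0.0524). The labels give same-numbered arrays only a number in common. With 3 arrays per group these correlations cannot show whether such arrays were handled together.

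The sign turned for 13 genes, of which 12 were not called and had differences of at most 0.303. With averaged probe sets Orc3 had -0.021, Orc4 0.024, Pold1 -0.043, Pold3 0.011, Rpa1 -0.020, Rfc2 -0.00067, Dut 0.025 and the called gene Slbp -0.0315. With median centring Orc4 had 0.0453, Pold3 0.071 and Dut 0.050. With quantile normalization Pold3 had 0.029 and Rpa1 -0.059, and with array weights 0.0021 and -0.0071. With the acinar covariate Gins3 had -0.0056, Gins4 -0.050, Prim2 0.060 and Dut 0.042. With any 1 array left out Orc4 had -0.073 to 0.0041, Gins3 -0.051 to 0.17, Prim1 -0.0090 to 0.11, Pold1 -0.10 to 0.25, Pold3 -0.070 to 0.042, Rpa1 -0.041 to 0.059, Rfc5 -0.16 to 0.14 and Dut -0.045 to 0.0093.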
